A study of Homo sapiens with 2 samples.

Results

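The peaks described here are crosslink sites of DDX18 in the coding part of the last exon of a transcript. They were chosen by their annotated position alone: the annotation had to read as a coding exon whose number equals the number of exons of the transcript. Of 16095 distinct peak positions in the deposited list, 7512 lay in coding exons, and 785 of those lay in a last exon (10.4% of coding positions, exact 95% interval 9.77 to 11.2). Of the 785, 763 lay in transcripts with 2 exons or more and 22 in transcripts with a single exon, which are reported apart. Peak height and the other measures below took no part in the choice. The peaks came from iCLIP, in which UV light links a protein to the RNA it touches and the sites are read from sequenced fragments, and the protein was DDX18 carrying 3 FLAG tags in H9, an established line of human embryonic stem cells kept under normal culture on irradiated mouse fibroblasts. There were 2 samples in 1 group, both with tagged DDX18, and 1 peak list for both; whether they came from separate cultures is not said. No input or untagged sample was used here, the list has no value per sample, and the reads per sample are unknown, so no value below has an error between replicates and no test was made. Intervals cover counting error only, and peaks of 1 gene are not independent of each other.

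DDX18 belongs to the DEAD-box RNA helicases, works mainly in the nucleolus and is known for its part in ribosome assembly. The last exon of an mRNA usually carries the stop codon, the end of the reading frame and the 3' UTR, and it is the stretch behind the final splice junction, where no exon junction complex follows on a spliced mRNA. In most genes the coding part of that exon is short, but in some families, such as zinc finger factors, tubulins, connexins and leucine-rich repeat receptors, it holds most of the protein.

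The last exon took more of the coding peaks in transcripts with few exons. In transcripts with 2 exons, 79 of 94 coding peaks lay in the last exon (84.0%, exact interval 75.05 to 90.8), where an equal share for each exon would give 50%. With 3 exons the count was 101 of 185 (54.6%, 47.1 to 61.9, against 33.3% for equal shares), and with 4 or 5 exons 142 of 431 (32.9%, 28.5 to 37.6, against 22.3%). From 6 exons up, the last exon held close to the share of any exon. It held 189 of 1406 peaks with 6 to 10 exons (13.4% against 12.7%), 153 of 2385 with 11 to 20 (6.42% against 6.87%), 79 of 2019 with 21 to 40 (3.91% against 3.70%) and 20 of 970 above that (2.06% against 1.71%). Counted by transcript, a last-exon peak was present in 50 of 64 transcripts with 2 exons and a coding peak, in 70 of 115 with 3 exons and in 107 of 289 with 4 or 5. The lengths of the exons are not in the list, so the shares are per exon and not per nucleotide. The equal share counts every exon of a transcript, including those without coding sequence, which cannot hold a coding peak. How much of the excess over it at few exons comes from such exons was not tested.

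**Figure D1:**
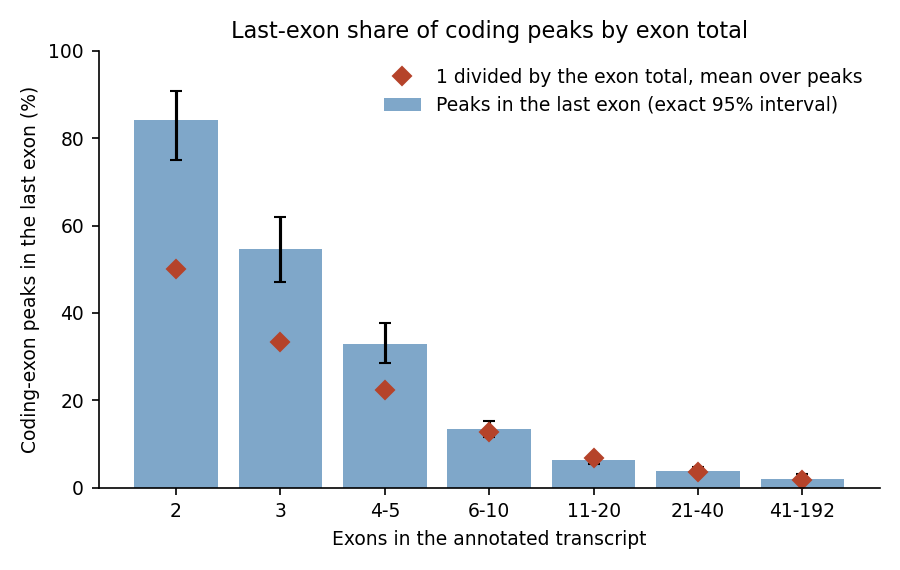
Bars give the percent of coding-exon peaks that lay in the last exon, by the number of exons in the annotated transcript, with exact 95% binomial intervals over peaks. Diamonds give the share if each exon, with or without coding sequence, held an equal part. The bars exceed them at 2, 3 and 4 to 5 exons (84.0%, 54.6% and 32.9% against 50%, 33.3% and 22.3%). From 6 exons up the bars nearly meet the diamonds.

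Counted by peak and not by transcript, last-exon peaks lay in transcripts with a median of 6 exons (quartiles 4 and 13, highest 93). The median was 18 for peaks in internal exons and 9 for peaks in first exons. Transcripts with at most 5 exons held 322 of the 763 last-exon peaks (42.2%) and 4.67% of the internal ones. The contrast with internal exons is in part built in. The number of internal exons grows with the exon total, while that of last exons does not, and transcripts with 2 exons have no internal exon. How much of the contrast goes beyond this was not tested. In the transcripts with at least 6 exons, the final exon held 441 of 6780 coding peaks (6.50%), and each of the 5 exons before it held between 5.22% and 7.05%. Median height was 8 or 9 at each of these 6 exon positions.

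Peak height is the authors' signal value, a whole number for which no adjustment for sequencing depth or transcript level is recorded. Heights were much alike across coding exons. The 785 last-exon peaks had a median height of 8 (95% interval of the median 8 to 9, quartiles 6 and 12, range 3 to 178). The median was 9 in 6401 internal-exon peaks, 8 in 326 first-exon peaks and 8 in 2955 peaks of 3' UTRs. At the upper end, 74 last-exon peaks reached a height of 20 (9.43%, exact interval 7.47 to 11.7), as did 604 internal ones (9.44%, 8.73 to 10.2). Heights of 50 or more were found at 12 last-exon peaks (1.53%, 0.792 to 2.66) and at 48 internal ones (0.750%, 0.553 to 0.993), 2 intervals that overlap. The median width was 11 nt (quartiles 4 and 19), against 10 nt for internal exons. Last-exon peaks held 9190 of the 83879 units of height summed over coding exons, and the 10 highest held 960 (10.4%) of the 9190.

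**Figure D2:**
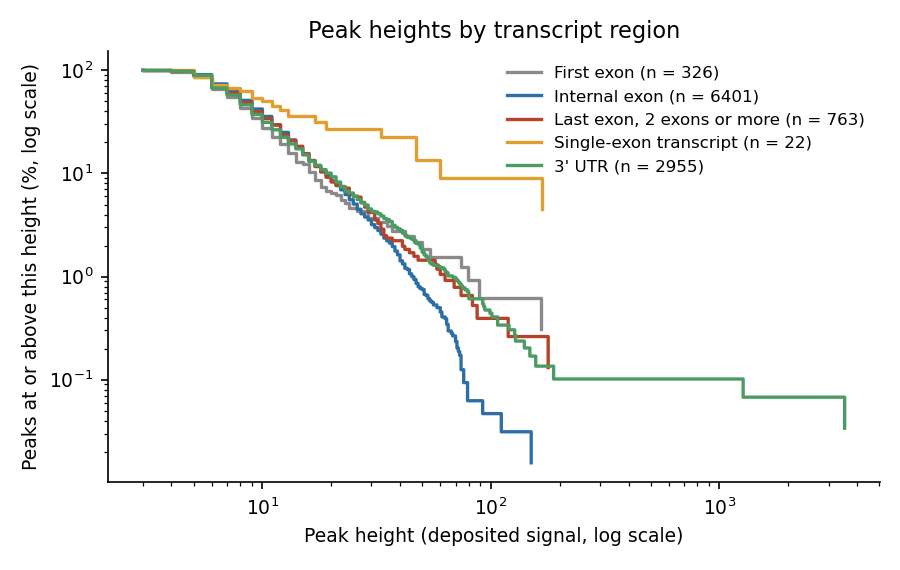
Each line gives the percent of peaks (log scale) at or above a given peak height (log scale) for 1 transcript region. The lines of first, internal and last exons run together through most heights, with medians of 8 or 9, while the 22 single-exon peaks (median 9.5) lie higher at the upper end.

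The 785 positions were called in 644 genes, of which 630 were protein-coding (3.14% of 20056, and 19.8% of the 3176 protein-coding genes with any coding-exon peak). Of the 644 genes, 539 had 1 last-exon peak, 75 had 2 and 30 had 3 or more. In 364 of them (56.5%) every coding-exon peak was in a last exon. This held by the choice of genes in the 205 with only 1 peak in the whole list. A peak in an internal exon was also present in 268 of the 644 genes. Where a gene had both, its highest last-exon peak was above its highest internal-exon peak in 71 of 268 genes, equal in 33 and below it in 164 (median log2 ratio -0.26). Against the highest 3' UTR peak, it was above in 79 of 244 genes, equal in 30 and below in 135 (median log2 ratio -0.21). A region with more peaks has more chances to hold the highest, so genes with 1 peak on each side are also given. Among the 75 genes with 1 last-exon and 1 internal-exon peak, the last-exon peak was higher in 30, equal in 22 and lower in 23, with a median height of 8 on both sides. Among the 89 genes with 1 last-exon peak and 1 peak in the 3' UTR, the last-exon peak was higher in 37, equal in 17 and lower in 35, again with medians of 8.

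The height of a last-exon peak went mostly with the gene it was called in. Each peak carries an expected height, the authors' own value for the called gene, and over the 785 positions height and expected height had a Spearman correlation of 0.86, given as a description since both values come from the same peak call. The lowest height on the list rose with it. Peaks with an expected height under 0.1 numbered 369 and started at a height of 3, the 336 between 0.1 and 1 started at 6, and the 80 with 1 or more started at 12, with medians of 6, 11 and 24.5. A peak of the median height of 8 was thus listed only where the expected height was below 1. Heights of different genes are therefore not a measure of how strongly DDX18 binds each.

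**Figure D3:**
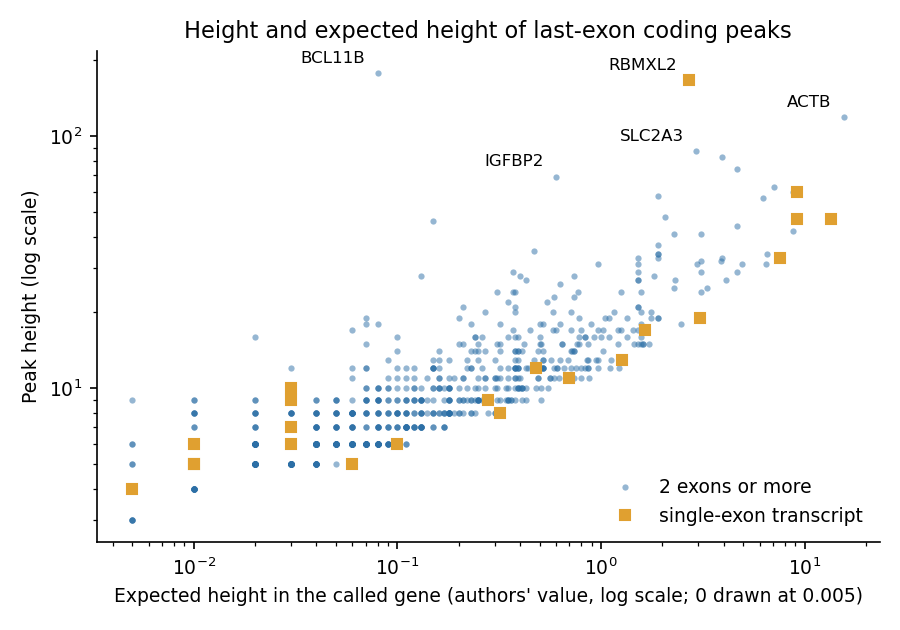
Each point is a last-exon coding peak, with its deposited height against the authors' expected height for the called gene, both on log scales. Heights rise with expected height and have a rising lower edge, and BCL11B (178 at an expected 0.08) stands far above the other points near its expected height.

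The highest last-exon peak lay in BCL11B, a transcription factor of T cells and neurons. It had a height of 178 at positions 99641715 to 99641727 of chromosome 14 on the minus strand (hg19, as for all positions here), in exon 4 of 4. It was the only peak called in the gene, and the expected height there was 0.08. RBMXL2, with a single exon and a peak of 167, is described below. Next among transcripts with 2 exons or more was ACTB, which encodes beta-actin, with 119 at position 5567383 of chromosome 7. The ACTB peak lay in exon 6 of 6 (expected height 15.62), beside 6 internal-exon peaks of up to 150 and 3 peaks in the 3' UTR of up to 188. BCL11B was thus a lone peak in an otherwise unlisted transcript, whereas ACTB was covered along its length.

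The next 8 highest genes with 2 exons or more each had further peaks in the list. SLC2A3, a glucose transporter, had a last-exon peak of 87 in exon 10 of 10, above its 8 internal peaks, which reached 63. SERPINH1, a collagen chaperone, had 2 last-exon peaks of 83 and 33 in exon 5 of 5, and SFRP2, a secreted Wnt antagonist, had 3 of 74, 44 and 29 in exon 3 of 3, below a 3' UTR peak of 157. IGFBP2, which binds insulin-like growth factors, had peaks of 17 and 69 within 114 nt of exon 4. In SLC2A3 and IGFBP2 the last exon held the highest peak of the coding sequence and of the 3' UTR, while in SFRP2 and SERPINH1 the 3' UTR peak was higher.

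SCD, a fatty acid desaturase, had 63 in exon 6 of 6, below 111 in its internal exons and 140 in its 3' UTR. FASN, the fatty acid synthase, had 57 in exon 43 of 43, 1 peak among 27 in its coding exons, the highest of which was 92. In both of these enzymes an internal exon held a higher peak. The last-exon peak of FASN was above those of its 3' UTR, which reached 37. CLDN6, a tight junction claudin of embryonic epithelium, had its 2 coding peaks, of 60 and 42, both in exon 2 of 2.

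Several mRNAs had many last-exon peaks, spread over a long stretch. Of the genes with 4 such peaks, NFE2L1 is taken as the one with the highest sum. PCDH1, a protocadherin, had 9 last-exon peaks over 1789 nt of exon 3 of 3 on chromosome 5, which from 5' to 3' were 15, 27, 21, 21, 17, 29, 27, 31 and 33 high. DAG1, dystroglycan, the receptor that ties the basement membrane to the cytoskeleton, also had 9, over 1830 nt of exon 4 of 4 on chromosome 3, with heights of 12, 12, 12, 14, 14, 24, 11, 20 and 10. LRRN1, a leucine-rich repeat membrane protein, had 8 over 1845 nt of exon 2 of 2, all between 10 and 14. In each of these 3 exons the highest listed peak was at most 2.4 times the lowest. Sites below the lowest listed height of a gene are not seen, so this ratio cannot show how even the sites were.

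GJA1, connexin 43 of gap junctions, had 7 peaks over 994 nt of exon 2 of 2 on chromosome 6, with heights of 58, 19, 37, 34, 19, 33 and 34. The highest was the most 5' one. PLEC, the cytoskeletal linker plectin, had 7 between 12 and 14 over 4765 nt of exon 32 of 32, all but 1 of its coding-exon peaks. HNRNPF, a splicing regulator, had 5 between 9 and 12 in exon 3 of 3, where all its coding peaks lay. DSE, which modifies dermatan sulfate, had 5 of 5 or 6 in exon 6 of 6, and NFE2L1, a transcription factor of proteasome genes, had 4 of 16, 20, 18 and 15. In HNRNPF, DSE and NFE2L1 the heights of a gene differed by at most 5.

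**Figure D4:**
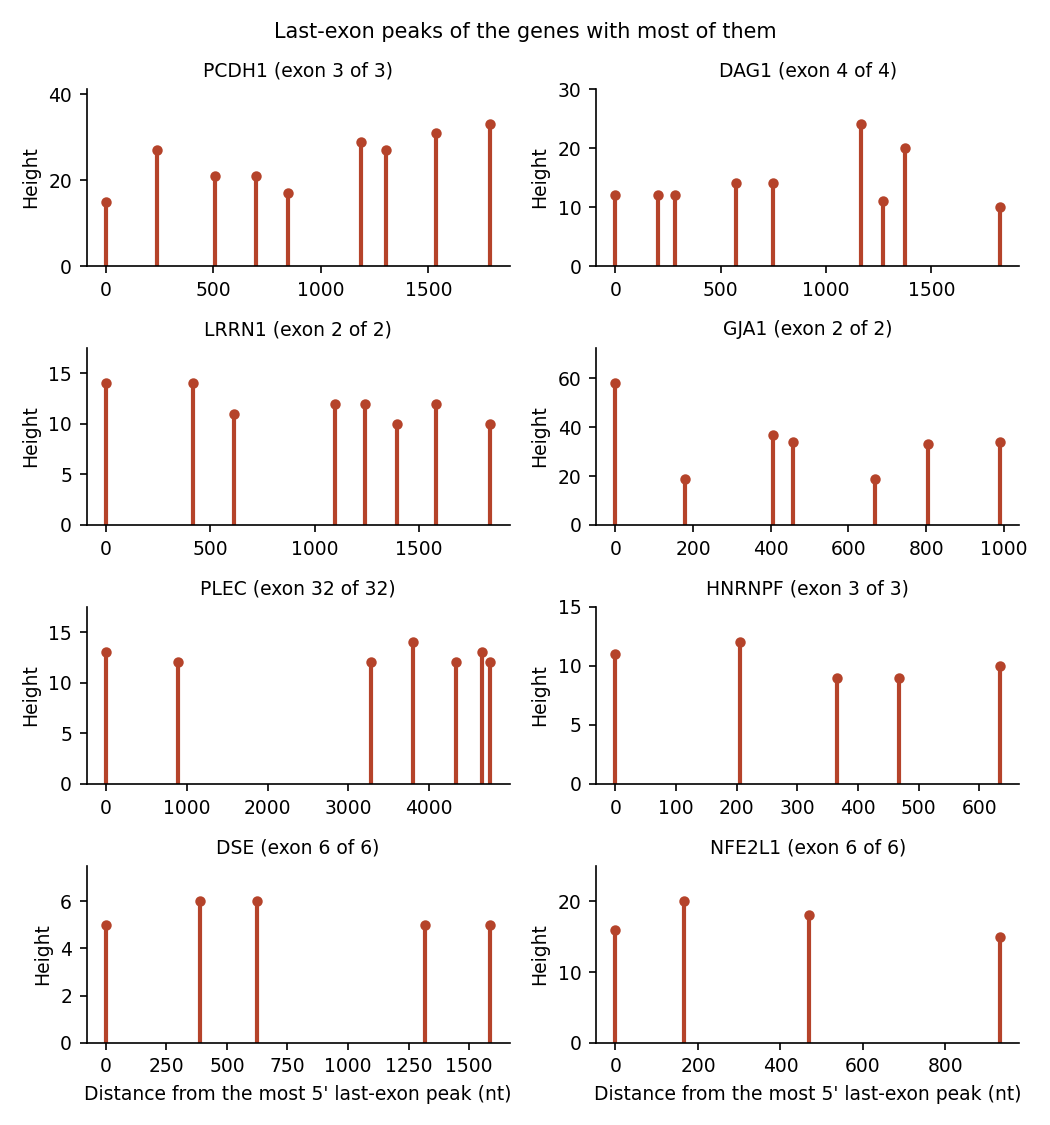
Each panel shows the last-exon peaks of 1 of the 8 genes with most of them (a tie at 4 peaks broken by summed height), as height against distance in nt from the most 5' of these peaks. Peaks are spread over 636 nt (HNRNPF) to 4765 nt (PLEC), and the range of heights within a gene differs, from 10 to 14 in LRRN1 to 19 to 58 in GJA1.

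Across all transcripts, 95 last exons held 2 or more peaks, 256 peaks in all, and 29 held 3 or more. Neighbouring peaks in 1 exon were a median of 189 nt apart (quartiles 101 and 388), and 153 of 161 such gaps exceeded 50 nt. The log2 heights of peaks within 1 exon had an SD of 0.38, pooled over exons, against 0.81 over all of these 256 peaks. In the 29 exons with 3 or more, the highest peak was a median of 1.41 times the lowest, and at most 3.05 times, in GJA1. Since each gene has its own lowest listed height, peaks of 1 gene share a lower limit, whose part in this likeness was not tested. The nearest other peak of any region was a median of 651 nt from a last-exon peak, 680 nt from a peak in a 3' UTR and 3064 nt from one in an internal exon, distances along the genome that include introns.

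Genes of C2H2 zinc finger proteins, DNA-binding factors whose fingers mostly lie in 1 long final exon, had many of their coding peaks there, but these were low. The list took genes by symbol, and BCL11B, whose protein also has such fingers, is not in it. Of its 662 genes, 33 had a last-exon peak (4.98%, exact interval 3.46 to 6.93, against the 3.14% of all protein-coding genes). Of their 83 coding-exon peaks 35 were in the last exon (42.2%, 31.4 to 53.5), against 19.5% if each exon held an equal part. They made up 4.46% of last-exon peaks (3.12 to 6.15), 1.23% of first-exon peaks, 0.687% of internal-exon peaks and 1.69% of 3' UTR peaks. The list makes up 3.30% of all protein-coding genes, which lies inside the interval for last-exon peaks. Their median height was 6, with a range of 4 to 14, and among last-exon peaks of at least 10 their share was 1.28% (0.349 to 3.24). ZSCAN10, a factor of pluripotent cells, had the highest at 14, followed by ADNP (12 and 8), ZNF43 (11) and ZNF146 (10 and 9). Chromosome 19 had 67 of its 407 coding peaks in last exons (16.5%), the highest share of any autosome. Zinc finger genes are clustered on this chromosome, but their part in its share was not tested.

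Tubulin and actin genes had 10 of 21 coding peaks in the last exon (47.6%, exact interval 25.7 to 70.2, against 21.4% for equal shares per exon). TUBA1B, an alpha-tubulin, had 3 of 29, 41 and 32 in exon 4 of 4, TUBA1C had 3 of 7, 7 and 16, TUBA1A had 2 of 12 and 11, and TUBB3 had 1 of 8. The alpha-tubulin genes are near-identical copies, and how reads shared between them were placed is not given in the sources used here, so the split among them is uncertain. Leucine-rich repeat membrane genes had 19 of 43 (44.2%, 29.1 to 60.1, against 24.1%), in LRRN1 (8), LINGO1 (4, up to 17), LRRC8D (4, up to 10), LRIG1 (2, up to 11) and LRRC8E (1, of 5). In both lists few genes carried the count, 5 genes each. The leucine-rich repeat list took genes by symbol. LRFN3 (9), LGR4 (8 and 7) and RTN4R (8), whose proteins also have such repeats, are not in it.

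Genes of cytoskeletal linkers and scaffolds, a list chosen for long coding exons, had 12 of 29 coding peaks in the last exon (41.4%, exact interval 23.5 to 61.1, against 7.42%), of which PLEC held 7. AHNAK, a giant scaffold protein, had 2 of height 6 that together spanned 15108 nt of exon 5 of 5. NES, the intermediate filament protein nestin, had 1 of 15 in exon 4 of 4, its only peak. Cadherins and protocadherins had 14 of 87 (16.1%, 9.09 to 25.5, against 11.2%), with PCDH1 holding 9 and CDH1, E-cadherin, 2 of up to 20. PCDHB2, a single-exon protocadherin, had 1 of 11, CDH3, P-cadherin, 1 of 10 and FAT1 1 of 9. The cadherin list took genes by symbol, and DSG2, a desmosomal cadherin with last-exon peaks of 24, 11 and 9, is not in it. Both lists as drawn thus rest largely on PLEC and PCDH1.

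Of the other lists, RNA-binding and splicing genes had 17 of 143 (11.9%, against 10.9% for equal shares per exon), led by RBMXL2 (167), LIN28A (19), HNRNPL (18) and L1TD1 (17). Chromatin remodelers and histone modifiers had 7 of 169 (4.14%, against 4.03%), with JARID2, a Polycomb cofactor (10), the demethylase KDM4A (9), the acetyltransferase EP300 (8) and the methyltransferase SETDB2 (8) the highest. Heat shock genes had 3 of 51 (5.88%, against 7.72%), in HSPA5, the chaperone of the endoplasmic reticulum (25), HSP90AA1 (14) and HSPA13 (8). SOX, FOX, POU and HOX factors had 1 of 7 (exact interval 0.361 to 57.9%, against 13.3%), in FOXN3 (7). Lists count by called gene, so the peaks in the SOX2 coding sequence, described below, are not in this count or in that of pluripotency genes. Solute carriers, a list drawn up after SLC2A3 was seen, had 20 of 204 (9.80%, against 9.27%), led by SLC2A3 (87), the glutamine transporter SLC1A5 (41), the lactate transporter SLC16A1 (31) and the glucose transporter SLC2A1 (26).

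Cytosolic ribosomal protein genes had 5 of 56 coding peaks there (8.93%, exact interval 2.96 to 19.6, against 19.0% for equal shares per exon), in RPL29 (18), RPL4 (17), RPS9 (15), RPL22L1 (10) and RPL14 (8). The interval takes in the equal share. A list of 59 ribosome assembly and nucleolar genes, the class to which DDX18 itself belongs, had 0 of 48 coding peaks in a last exon. This allows a share of up to 6.25% by a limit of 3 counts (exact upper limit 7.397%). With the many exons of these transcripts, equal shares would give 4.37%, so a shortfall was not detectable at this number of peaks. The 0 holds for the list and not for the class. Genes of this class outside the list, such as PDCD11 (9), RSL1D1 (8), SNU13 (8) and BYSL (6), did have a last-exon peak.

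**Figure D5:**
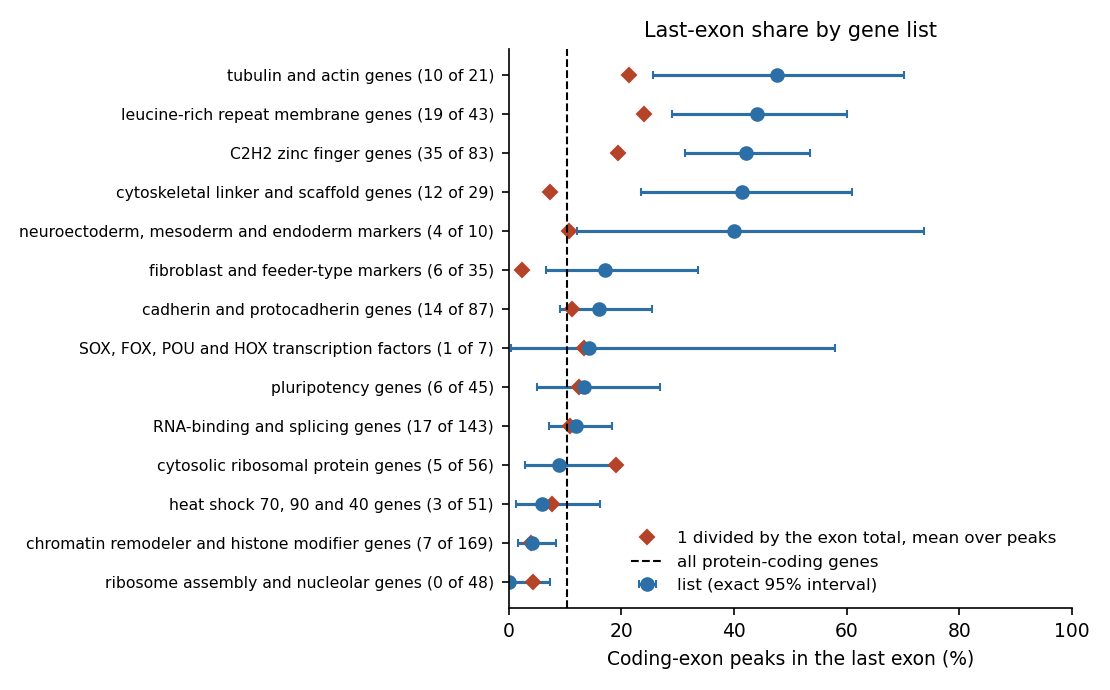
Points give the percent of each list's coding-exon peaks that lay in the last exon, with exact 95% binomial intervals over peaks and the counts in the labels. Diamonds give the share if each exon held an equal part, and the dashed line gives the 10.4% of all protein-coding genes. Tubulin and actin, leucine-rich repeat, zinc finger and cytoskeletal linker genes lie between 41.4% and 47.6%, above their diamonds, and the listed ribosome assembly genes at 0. Diamonds take no account of exon length, and most of the lists at 41.4% to 47.6% hold families with a long coding exon, as described above. The part of length in their excess was not tested. Intervals also lie above the diamonds for fibroblast and feeder-type markers (17.1% against 2.37%). The same holds for markers of neuroectoderm, mesoderm and endoderm (40% against 10.7%).

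Pluripotency genes had 6 of 45 coding peaks in last exons (13.3%, exact interval 5.05 to 26.8, against 12.5% for equal shares), in 6 of 30 genes (20%, against the 3.14% of all protein-coding genes). LIN28A, the RNA-binding protein that blocks let-7 maturation, had 1 of 19 in exon 4 of 4, above its 2 internal peaks (up to 14) and below the 36 of its 3' UTR. L1TD1, which is bound to RNA and abundant in pluripotent cells, had 1 of 17 in exon 4 of 4. CRIPTO, the Nodal co-receptor, had 1 of 15 in exon 6 of 6, its only coding peak. ZSCAN10 (14), JARID2 (10) and ZFP42 (9), which encodes the stem cell marker REX1, had 1 each. Among markers of other cells, fibroblast and feeder-type genes had 6 of 35 coding peaks in last exons (17.1%, 6.56 to 33.6, against 2.37%), in 5 of 15 genes (33.3%): COL6A1 (15 and 12), COL1A2 (14), COL6A2 (11), COL1A1 (10) and COL5A2 (5), all collagens. Markers of neuroectoderm, mesoderm and endoderm had 4 of 10 (40%, 12.2 to 73.8, against 10.7%), in 3 of 18 genes (16.7%), NES, KDR (9 and 8) and TUBB3, of which NES and TUBB3 are also in the lists above. Reads of the mouse feeder cells were not separated here, and their part in these values was not tested.

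The coding sequence of SOX2, a core pluripotency factor with a single exon, held 4 of the 22 single-exon peaks, although no peak was called under SOX2. On the plus strand of chromosome 3, the peak starting at 181430292 was 9 high, the one at 181430490 was 10, the one at 181430601 was 6 and the one at 181430846 was 7. All were called under SOX2-OT, the long non-coding RNA gene that spans SOX2 on the same strand, with an expected height of 0.03. In all, 10 peaks were called under SOX2-OT, and all of them were annotated to the SOX2 transcript: 1 of 12 in its 5' UTR, the 4 above, 4 of 6 each in its 3' UTR and 1 of 7 at its end. Which of the 2 RNAs the reads came from cannot be told apart from the list.

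Other positions were also called in a gene other than the annotated one. Of the 785 positions, 743 were called in the gene of the annotated transcript, 39 only in another gene, and the transcripts of 3 were not matched. The 39 positions belonged to the transcripts of 34 genes, and 17 of those genes had no peak called under their own name. Of the 39, 24 lay on the strand of the annotated gene, 13 on the opposite strand and 2 had no strand to compare. Their heights ran from 3 to 10 with a median of 6. They included OAZ1, the ornithine decarboxylase antizyme, with peaks of 9 and 8 in exon 5 of 5 called under SPPL2B, and PELO, a ribosome rescue factor, with 1 of 5 called under ITGA1. Where both the annotated gene and another gene were called at 1 position, the lowest expected height of the other gene was below that of the annotated gene at 17 of 18 positions and equal at 1, with medians of 0.04 and 0.115. The annotation also disregards strand. Of the 666 positions whose annotated gene had a strand in the promoter table, 652 lay on that strand and 14 on the opposite one. The highest of these 14 was 9, and 1 of them, of height 6, was in LRRN1 called under SUMF1. Of the 14, 13 were among the 39 positions called only in another gene. Strands came from GRCh38 and positions from hg19, and the part of this difference was not tested.

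Among the other single-exon peaks, RBMXL2, an intronless relative of the splicing regulator RBMX, had 1 of 167 at positions 7110842 to 7110859 of chromosome 11, its only peak, with an expected height of 2.71. FZD7, a Wnt receptor, had 2 of 60 and 47 that together spanned 1010 nt. H3C6, a histone H3 gene, had 1 of 47, and CD24, a surface glycoprotein, had 1 of 33 at a position also called in another gene. Histone H3 genes, RBMXL2 and CD24 have close copies in the genome, as does ACTB, so these placements are uncertain. The 22 single-exon peaks had a median height of 9.5 (95% interval 6 to 19), and without RBMXL2, FZD7, H3C6 and CD24 the highest was 19, in BEX3.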

How the data were processed

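Per the submitters' processing notes, reads were handled with FastQC 0.10.1 and BWA on hg19, and per the file headers peaks were annotated with annotatePeaks.pl of HOMER. The peak caller, the rule for significance and the pooling of the 2 samples are not given in the sources used for this text. Per the labels' protocols, DDX18 was pulled down through FLAG after UV light at 254 nm (160 mJ/cm2). The authors deposited each height as a whole-number signal, and in the peak's name the called gene, the expected height and a p-value (1e-100 to 0.05). HOMER places start and end sites before coding exons, so coding sequence near a transcript's end can carry another label, and a last exon of 1 transcript may be internal in another.

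Positions were counted 1 time each, while gene counts use every called gene. Names, biotypes and transcripts came from RefSeq (GRCh38.p14), without its positions, and gene strands from its promoter table. Exon numbers ran along the strand in 3543 of 3546 neighbouring pairs. Shares have exact (Clopper-Pearson) and medians order-statistic 95% intervals (SciPy 1.17.1), and both were tested on simulated data. An equal share is the mean of 1 divided by the exon total over the coding peaks concerned. The exon total also counts exons without coding sequence, and an equal share takes no account of exon length. The members and the 14 gene lists were chosen with earlier results of these data known. Named are the 10 highest multi-exon and 5 highest single-exon peaks (1 per gene), the 8 genes with most last-exon peaks and the 4 highest of each list. Others were named after their values were seen. A gene that the rule names is not reported here. No sequence is printed, because no hg19 genome was used here.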

Additional observations from a re-analysis of the deposited data

How the results depend on the processing

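Of 4 results (the last-exon share of coding peaks, the median height, the share of protein-coding genes with a last-exon peak and the zinc finger share), 21 of 28 values under 7 alternatives stayed within the 95% interval of the reported value. These included all values with single-exon transcripts, positions under several genes, peaks called in another gene or peaks on the opposite strand left out, the last of which was chosen after seeing the data. Those settings kept 743 to 771 of the 785 positions, which left little room for change. With 1 peak per gene and exon class the last-exon share of coding peaks was 17.5%, because genes with many internal peaks then count less. The share of protein-coding genes was again 3.14% there, as that setting keeps every gene. With only peaks of a deposited p up to the median (4.81e-05), the median height was 11, the share of protein-coding genes 1.65% and the zinc finger share 2.53%. With heights of at least 10 these were 14, 1.12% and 1.28%, and the first 2 follow from the smaller list. The zinc finger share thus rests on low peaks. No paired analysis was possible because the list has no value per replicate, and leaving out a replicate was not possible for the same reason. Depth, RNA abundance and exon length are not in the list and limit every share above.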
